A study of Mus musculus with 9 samples.

Results

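Smooth muscle and myofibroblast contractile genes were examined in RNA-seq of mouse embryonic fibroblasts (MEFs), connective tissue cells grown from mouse embryos, after expression of *CRX* from an opossum or from a human. The genes are 36 listed symbols for contractile proteins, their actin-binding partners and the transcription factors that drive them, chosen by name from 22068 genes in the count table. They were chosen with earlier results of these data known, so shares of all genes set beside them describe the list and do not test it. All 36 were in the table, and 29 of them were among the 10100 genes that were tested. The study compared the effect of a metatherian and a eutherian CRX on the transcriptome of the same cells. Primary MEFs of strain C57Bl/6 at passage 2 were electroporated with a plasmid that carried V5-tagged opossum *CRX* (the metatherian CRX group), V5-tagged human *CRX* (the eutherian CRX group) or neither (control). Every plasmid also carried a puromycin resistance gene, so that all 3 groups were electroporated and kept under puromycin for 5 days. For the time around selection, the labels give 48 h of recovery after it, and the methods of the study give 48 h before it and a night after it. Each group had 3 libraries of polyA RNA. The methods state that RNA was harvested in triplicate per group, without saying that the triplicates were separate cultures, so p-values measure the spread between these libraries, which may be technical.

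Smooth muscle cells and myofibroblasts, the contractile fibroblasts of healing wounds, shorten when myosin slides along filaments of muscle-type actins. Phosphorylation of the myosin light chain switches the motor on, and a phosphatase switches it off. Many of these genes carry a CArG box, a short element with a run of A and T between a pair of C and a pair of G, which is bound by serum response factor (SRF) together with myocardin or the actin-sensing cofactors of the MRTF family. Fibroblasts on plastic in serum are known to switch on part of this programme. CRX is a homeodomain transcription factor best known from photoreceptors, and TAATCC is the core of the sequence it binds.

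Promoter windows from 250 bases before to 50 bases after each annotated start were taken from RefSeq (GRCm38.p6) and matched 30 of the 36 genes by symbol. A CArG box was found in the windows of 9 of these 30 genes (30%), namely *Acta1*, *Actc1*, *Cnn2*, *Fhl1*, *Fhl2*, *Ldb3*, *Myl9*, *Srf* and *Vcl*. Among all 27025 genes with a window, 1.81% had one. The letters TAATCC, searched on both strands, stood in the windows of *Fhl1* and *Zyx* (6.67% of 30 genes), and in 8.14% of all genes. A match of letters is a description and does not show binding, and the absence of a match applies to this window and to the exact pattern alone, since boxes with a changed base were not counted. The following 5 windows are shown because their genes stand for different roles and because *Fhl1* holds both motifs, with the matches in capitals and each sequence written 5′ to 3′ on the strand of the gene. In *Srf* (chr17:46556113-46556412, minus strand) CArG boxes began 82 and 62 bases before the start, in *Acta1* (chr8:123894726-123895025, minus strand) 73 bases, in *Myl9* (chr2:156775214-156775513, plus strand) 161 bases and in *Vcl* (chr14:20929148-20929447, plus strand) 227 bases before it. In *Fhl1* (chrX:56779433-56779732, plus strand) a CArG box began 102 bases and the reverse complement of TAATCC 75 bases before the start, without overlap.
Srf: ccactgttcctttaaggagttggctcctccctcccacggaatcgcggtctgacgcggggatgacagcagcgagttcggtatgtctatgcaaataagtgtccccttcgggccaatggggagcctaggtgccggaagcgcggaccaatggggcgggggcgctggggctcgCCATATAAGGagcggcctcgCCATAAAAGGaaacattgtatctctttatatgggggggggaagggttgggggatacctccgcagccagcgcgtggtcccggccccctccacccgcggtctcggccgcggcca
Acta1: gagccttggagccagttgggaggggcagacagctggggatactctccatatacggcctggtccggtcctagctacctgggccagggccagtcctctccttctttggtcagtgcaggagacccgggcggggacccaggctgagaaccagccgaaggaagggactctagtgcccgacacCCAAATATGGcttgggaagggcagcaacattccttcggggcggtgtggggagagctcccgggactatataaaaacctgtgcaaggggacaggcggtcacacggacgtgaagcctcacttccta
Myl9: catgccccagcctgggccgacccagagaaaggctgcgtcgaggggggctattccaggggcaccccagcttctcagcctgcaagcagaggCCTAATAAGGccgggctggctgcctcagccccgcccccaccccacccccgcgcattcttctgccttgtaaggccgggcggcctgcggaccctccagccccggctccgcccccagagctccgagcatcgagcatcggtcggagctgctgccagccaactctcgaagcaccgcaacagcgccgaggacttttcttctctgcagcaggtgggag
Vcl: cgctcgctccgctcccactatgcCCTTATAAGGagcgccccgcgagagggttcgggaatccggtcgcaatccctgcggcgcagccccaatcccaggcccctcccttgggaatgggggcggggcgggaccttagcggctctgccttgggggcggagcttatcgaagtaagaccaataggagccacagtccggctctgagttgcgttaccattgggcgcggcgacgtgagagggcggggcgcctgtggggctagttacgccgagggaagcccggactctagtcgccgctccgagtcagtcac
Fhl1: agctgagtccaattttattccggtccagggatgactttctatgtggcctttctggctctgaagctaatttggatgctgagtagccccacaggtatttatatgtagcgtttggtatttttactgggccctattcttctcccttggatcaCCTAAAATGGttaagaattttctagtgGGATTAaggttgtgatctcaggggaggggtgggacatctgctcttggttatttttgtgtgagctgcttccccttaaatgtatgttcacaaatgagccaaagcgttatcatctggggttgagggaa

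The libraries held between 54145701 and 94699657 counts on genes, and levels are given as CPM, the counts brought to a common library size with edgeR's TMM factors (0.961 to 1.10). Mouse *Crx*, on which reads of the human plasmid gene can fall, had 627, 995 and 313 counts with eutherian CRX, 0, 0 and 0 in control and 4, 0 and 0 with metatherian CRX. The libraries numbered 3 stood apart from the others. Among the 10100 tested genes, eutherian CRX replicate 3 held the lowest value of the 9 libraries for 22.6% and the highest for 18%, and metatherian CRX replicate 3 for 20.6% and 19.8%. Fold changes and p-values are from edgeR's quasi-likelihood test in 1 model of the 9 libraries, blocked by replicate number, with Benjamini-Hochberg adjustment over the 10100 genes and a call at an adjusted p under 0.05. Both comparisons with control use the same 3 control libraries, so they are not independent of each other, and their values are only set side by side.

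Most contractile genes had lower mean levels with either CRX orthologue than in control. The mean CPM was lower than in control for 35 of the 36 genes with metatherian CRX (53.3% of the 18312 genes with a count) and for 34 with eutherian CRX (50.2%). The widest ratios of mean CPM, control over metatherian CRX, were 8.76 in *Myh11*, the smooth muscle myosin heavy chain, 6.72 in *Cnn1*, 6.58 in *Actg2*, 5.92 in *Lmod1*, 5.77 in *Pdlim3*, which had few counts, and 4.28 in *Acta2*. For eutherian CRX the same ratios were 5.29, 2.65, 6.22, 4.46, 2.71 and 3.05. With metatherian CRX edgeR called 0 of 29, where it called 0.0297% of all genes tested, and at an unadjusted p under 0.05 it gave 19 of 29 lower (10.5% of all genes) and 0 higher (9.04%). DESeq2's Wald test called 10 of the 29 in that comparison (9.94% of all genes) and limma voom with library quality weights 23 (46.2%). With eutherian CRX edgeR also called 0 of 29 (0.604% of all genes), and 12 were lower (6.34%) and 0 higher (2.23%) at an unadjusted p under 0.05, where DESeq2 called 5 (3.3% of all genes) and limma voom 14 (16.8%). All 3 metatherian CRX libraries lay below all 3 control libraries for 17 of the 29 genes, against 12.3% of all genes, and all 3 eutherian CRX libraries did so for 17 (7.8%). In pairs of the same replicate number, 24 of the 29 were lower than control in all 3 pairs with metatherian CRX (25.1% of all genes) and 20 with eutherian CRX (17.4%).

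The median log2 fold change of the 29 tested genes was -0.68 for metatherian CRX (range -2.76 to 0.01) and -0.66 for eutherian CRX (range -2.43 to 0.06), with medians of -0.0080 and 0.0013 over all 10100 genes. In each comparison 28 of the 29 were below 0, as were 51.2% of all genes tested for metatherian and 49.7% for eutherian CRX. Relative to the control mean on the log2 CPM scale, the median of the 29 was -0.22, -0.07 and 0.30 in the control libraries, -0.52, -0.63 and -0.89 with eutherian CRX and -0.53, -0.58 and -0.83 with metatherian CRX. Every CRX library thus lay below every control library in this median. The 29 genes had to pass a filter on FPKM (counts scaled to exon length and library size) of 2 in at least 1 group. *Ppp1r14a* passed it through control alone and *Lmod1* through control and eutherian CRX, so the direction of these genes is partly set by the filter. In bulk RNA, fewer contractile cells in a culture and less of their RNA per cell cannot be told apart.

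**Figure D1:**
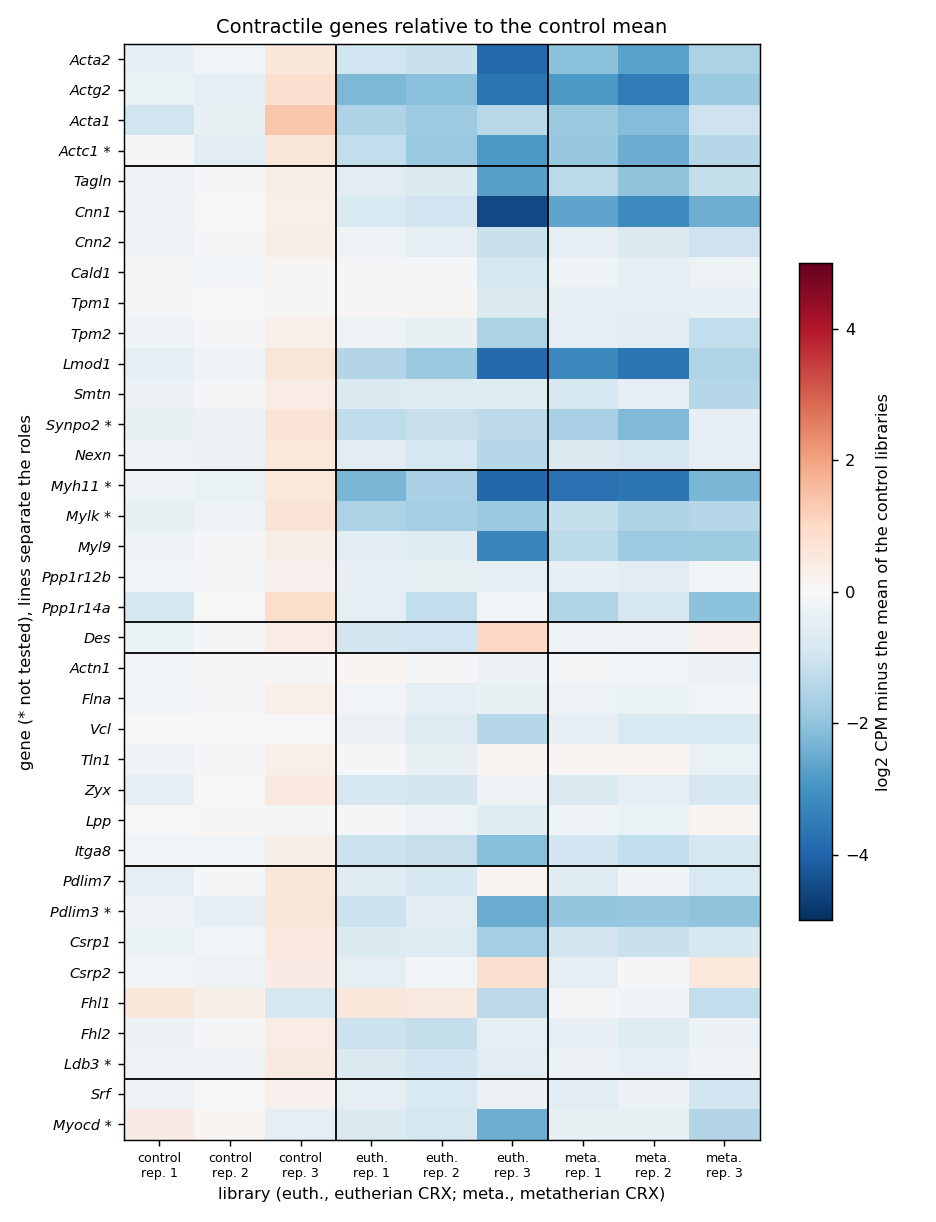
Log2 CPM of the 36 contractile genes in each of the 9 libraries, as the difference from the mean of the 3 control libraries (colour, blue lower and red higher), with the genes in rows grouped by role and the libraries in columns. An asterisk marks the 7 genes that were not tested. The smooth muscle isoforms are blue in all 6 CRX libraries, down to -4.52 for *Cnn1* in eutherian CRX replicate 3, whereas *Des* and *Csrp2* are red there.

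Per exon length, the most abundant members in control were *Acta2* at 664 ± 257 FPKM, *Tagln* at 656 ± 139 FPKM, *Tpm1* at 570.2 ± 33.4 FPKM and *Cald1* at 485 ± 40.5 FPKM (SD, n = 3). The lowest were *Pdlim3* at 0.143 ± 0.0651 FPKM and *Myocd* at 0.152 ± 0.0452 FPKM (SD, n = 3). With metatherian CRX *Acta2* was at 160.2 ± 66.3 FPKM and *Tagln* at 239 ± 73.5 FPKM, and *Tpm1* at 434 ± 24.3 FPKM and *Cald1* at 399 ± 46.5 FPKM were then the most abundant of the 4. With eutherian CRX the 4 genes were at 225 ± 154 FPKM in *Acta2*, 328 ± 188 FPKM in *Tagln*, 538 ± 129 FPKM in *Tpm1* and 419.6 ± 107 FPKM in *Cald1*. The means were in the same order in both CRX groups, but with eutherian CRX *Tagln* and *Cald1* lay within their SDs of each other.

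Muscle actins, the filaments on which myosin pulls, had the lowest median fold change of the roles (-2.11 for metatherian and -1.62 for eutherian CRX on the log2 scale, 3 genes tested). *Acta2*, smooth muscle alpha-actin and the usual marker of myofibroblasts (chromosome 19, 34240336 to 34255585, mm10), had 1375, 1674 and 2747 CPM in control replicates 1, 2 and 3. With eutherian CRX it had 931, 844 and 125 CPM, and with metatherian CRX 445, 287 and 622 CPM. No CRX library reached the lowest control, and the lowest value of all was in eutherian CRX replicate 3. The log2 fold change was -2.11 for metatherian CRX (standard error, SE, 0.74, adjusted p = 0.197, edgeR) and -1.62 for eutherian CRX (SE 0.77, adjusted p = 0.642, edgeR). *Actg2*, the gamma-actin of visceral smooth muscle, had 22.2, 20.4 and 50.1 CPM in control, 6.03, 6.64 and 2.22 CPM with eutherian CRX and 3.86, 2.49 and 7.74 CPM with metatherian CRX. Neither CRX group overlapped with control, and the log2 fold changes were -2.73 (SE 0.60, adjusted p = 0.0995, edgeR) for metatherian and -2.43 (SE 0.61, adjusted p = 0.236, edgeR) for eutherian CRX. *Acta1*, skeletal muscle alpha-actin, whose promoter window with a CArG box is shown above, had 19.0, 28.8 and 96.9 CPM in control, 13.0, 10.6 and 14.4 CPM with eutherian CRX and 10.4, 8.27 and 18.5 CPM with metatherian CRX. Control replicate 3 was far above the other controls, and every CRX library was below the lowest control, if narrowly. The log2 fold changes of *Acta1* were -1.77 (SE 0.38, adjusted p = 0.0974, edgeR) and -1.61 (SE 0.38, adjusted p = 0.201, edgeR), and 0.0974 was the lowest adjusted p of the 29 genes for metatherian CRX. *Actc1*, cardiac alpha-actin, was below the filter with 91, 113 and 194 counts in control, 60, 33 and 17 with eutherian CRX and 37, 23 and 44 with metatherian CRX. Actin genes are close relatives. Of all 75-base stretches of the longest coding transcript, 0 of 1961 in *Acta2*, 0 of 1259 in *Actg2*, 3 of 1372 in *Acta1* and 0 of 1399 in *Actc1* stood unchanged in another actin transcript, so reads of this length were nearly all unique to 1 of them. Exons of *Acta2* overlap those of *Stambpl1* on the other strand by 322 bases, and the strand setting of the counting is not given in the sources used here.

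**Figure D2:**
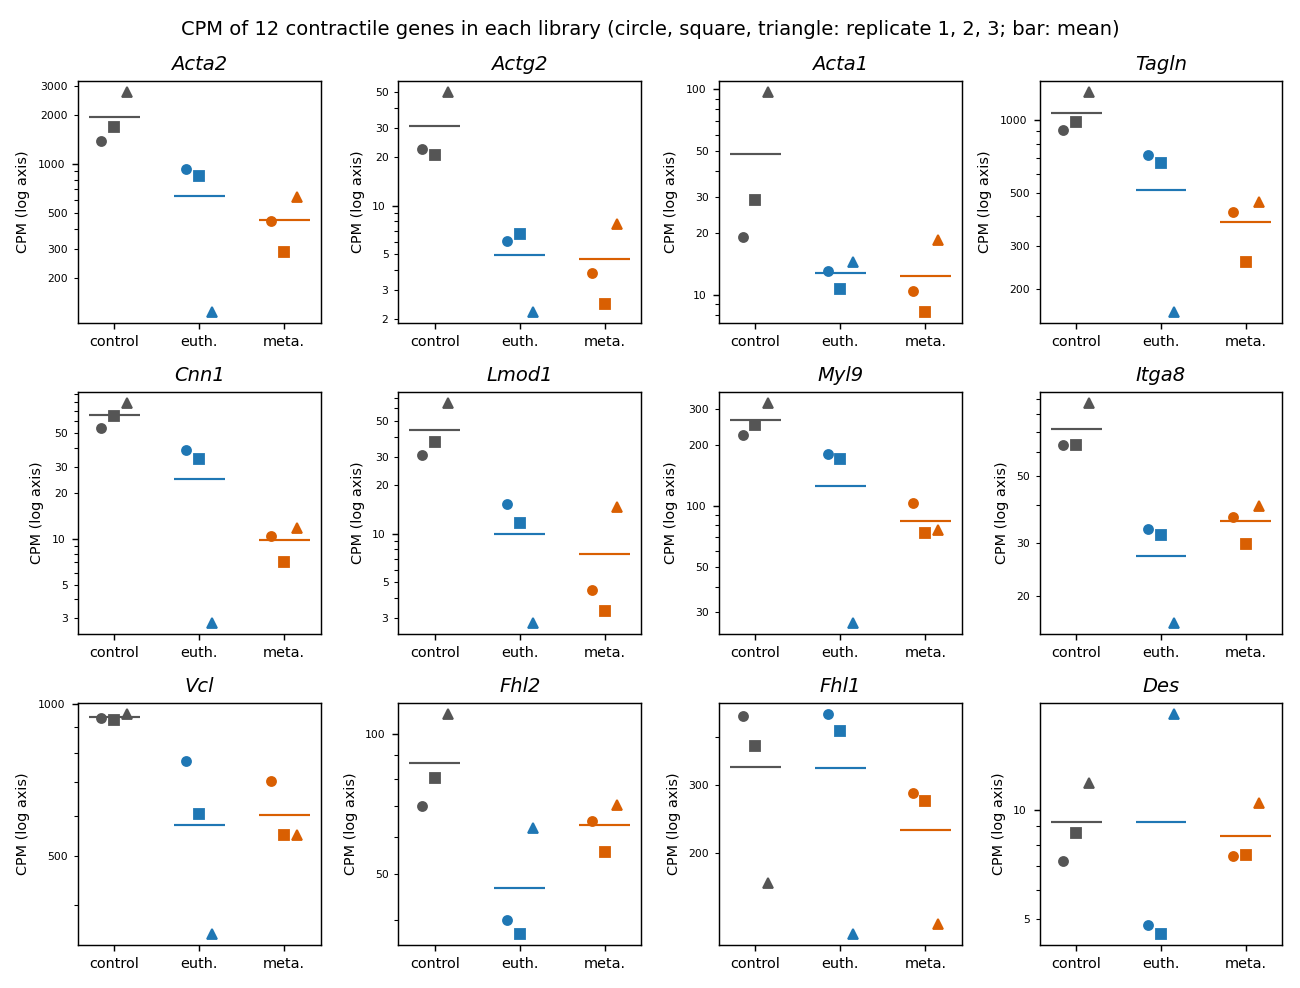
CPM (log axes) of 12 contractile genes in control (grey), eutherian CRX (euth., blue) and metatherian CRX (meta., orange), with 1 point per library (circle, square and triangle for replicates 1, 2 and 3) and a bar at the mean. In *Acta2*, *Actg2*, *Acta1*, *Tagln*, *Cnn1*, *Lmod1*, *Myl9*, *Itga8* and *Vcl* all CRX libraries lie below all controls, and the triangle of eutherian CRX is the lowest point in most of these, with 125 CPM in *Acta2*.

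Thin-filament proteins, which bind along actin and regulate or stabilise it, had a median log2 fold change of -0.81 for metatherian and -0.76 for eutherian CRX over 9 tested genes. *Tagln* (SM22), an actin-binding protein early in smooth muscle differentiation, had 915, 983 and 1313 CPM in control, 716, 664 and 161 CPM with eutherian CRX and 416, 259 and 459.9 CPM with metatherian CRX. *Cnn1*, calponin of differentiated smooth muscle, had 53.9, 64.8 and 78.5 CPM in control, 38.3, 33.4 and 2.81 CPM with eutherian CRX and 10.5, 7.06 and 11.8 CPM with metatherian CRX. *Lmod1*, leiomodin, which seeds new actin filaments in smooth muscle, had 31.0, 36.9 and 64.7 CPM in control, 15.2, 11.7 and 2.81 CPM with eutherian CRX and 4.45, 3.30 and 14.6 CPM with metatherian CRX. In all 3 genes both CRX groups lay wholly below control, and eutherian CRX replicate 3 was the lowest library. The log2 fold change for metatherian CRX was -1.52 in *Tagln* (SE 0.54, adjusted p = 0.201, edgeR), -2.76 in *Cnn1* (SE 0.82, adjusted p = 0.151, edgeR) and -2.67 in *Lmod1* (SE 0.78, adjusted p = 0.148, edgeR). For eutherian CRX it was -1.12 in *Tagln* (SE 0.55, adjusted p = 0.673, edgeR), -1.59 in *Cnn1* (SE 0.83, adjusted p = 0.690, edgeR) and -1.96 in *Lmod1* (SE 0.78, adjusted p = 0.551, edgeR). Without eutherian CRX replicate 3 the values for eutherian CRX were -0.46 in *Tagln*, -0.73 in *Cnn1* and -1.19 in *Lmod1*, and over the 9 fits without 1 library the value for metatherian CRX lay between -3.45 and -2.08 in *Cnn1* and between -3.69 and -2.25 in *Lmod1*.

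*Smtn*, smoothelin of contractile smooth muscle, had 72.1, 86.2 and 115 CPM in control, 56.0, 58.0 and 59.0 CPM with eutherian CRX and 51.6, 64.0 and 33.6 CPM with metatherian CRX. *Nexn*, an actin-binding protein of adhesion sites and Z-discs, had 31.9, 30.5 and 54.3 CPM in control, 26.1, 20.1 and 14.1 CPM with eutherian CRX and 23.0, 21.2 and 27.4 CPM with metatherian CRX. Both genes were apart from control in either comparison, with log2 fold changes of -0.88 (unadjusted p = 0.0119, edgeR) and -0.69 (0.0508) for metatherian and of -0.66 (0.0377) and -0.92 (0.0183) for eutherian CRX. The widely expressed relatives *Cnn2* and *Tpm2* were also lower. *Cnn2* had 392, 430.4 and 551 CPM in control, 375, 328 and 208 CPM with eutherian CRX and 323, 274 and 219 CPM with metatherian CRX. *Tpm2*, beta-tropomyosin, which lies along the actin helix, had 385, 431 and 526 CPM in control, 368, 341 and 149.6 CPM with eutherian CRX and 324, 302 and 187 CPM with metatherian CRX. Control replicate 1 was close to eutherian CRX replicate 1 in both genes, although no values overlapped. Their log2 fold changes were -0.79 (unadjusted p = 0.0166, edgeR) and -0.81 (0.0403) for metatherian and -0.64 (0.0387) and -0.76 (0.0521) for eutherian CRX. *Cald1* and *Tpm1*, caldesmon and alpha-tropomyosin, differed less, with log2 fold changes of -0.32 and -0.43 for metatherian and -0.31 and -0.19 for eutherian CRX. *Synpo2*, myopodin, was below the filter at 4.70, 4.87 and 9.56 CPM in control, and no CRX library of it exceeded 4.58 CPM. Exons of *Nexn* overlap *Fubp1* on the other strand by 2046 bases, and those of *Tagln* and *Tpm2* overlap *Pcsk7* and *Car9* by 99 and 85 bases.

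Myosin and its regulators supply the motor of contraction. *Myh11*, the defining myosin of smooth muscle, was below the filter but held 536, 871 and 1216 counts in control, 196, 260 and 57 with eutherian CRX and 69, 71 and 161 with metatherian CRX. In CPM these were 10.3, 9.52 and 17.4 in control, 2.44, 3.84 and 0.755 with eutherian CRX and 0.862, 0.941 and 2.45 with metatherian CRX, without overlap of either CRX group with control. *Mylk*, the kinase that phosphorylates the light chain, also lay below the filter, at 11.8, 12.7 and 24.1 CPM in control, 5.05, 4.81 and 4.26 CPM with eutherian CRX and 6.62, 5.30 and 5.72 CPM with metatherian CRX. All 6 CRX libraries were thus near each other and below all controls. *Myl9*, the regulatory light chain that this kinase acts on and whose promoter window is shown above, had 223, 249 and 320 CPM in control, 179.9, 169 and 26.5 CPM with eutherian CRX and 103, 73.7 and 75.8 CPM with metatherian CRX. Again no values overlapped with control, and the change on the log2 scale was -1.72 for metatherian (SE 0.60, adjusted p = 0.195, edgeR) and -1.29 for eutherian CRX (SE 0.62, adjusted p = 0.646, edgeR). Without control replicate 3 it was -0.98 for metatherian CRX, and without eutherian CRX replicate 3 it was -0.55 for eutherian CRX. *Ppp1r12b*, a targeting subunit of myosin phosphatase, had 32.4, 33.6 and 41.9 CPM in control, 26.5, 27.4 and 25.4 CPM with eutherian CRX and 27.2, 24.0 and 32.5 CPM with metatherian CRX, with log2 fold changes of -0.43 (unadjusted p = 0.0149, edgeR) and -0.37 (0.0286) in that order. Of its CRX libraries, metatherian CRX replicate 3 alone reached the lowest control. *Ppp1r14a*, the phosphatase inhibitor CPI-17, was scarce, at 0.595, 1.09 and 2.03 CPM in control, 0.810, 0.458 and 1.01 CPM with eutherian CRX and 0.375, 0.610 and 0.243 CPM with metatherian CRX. Its groups overlapped, and its log2 fold change for metatherian CRX was -1.47 (SE 0.55, unadjusted p = 0.0336, edgeR).

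**Figure D3:**
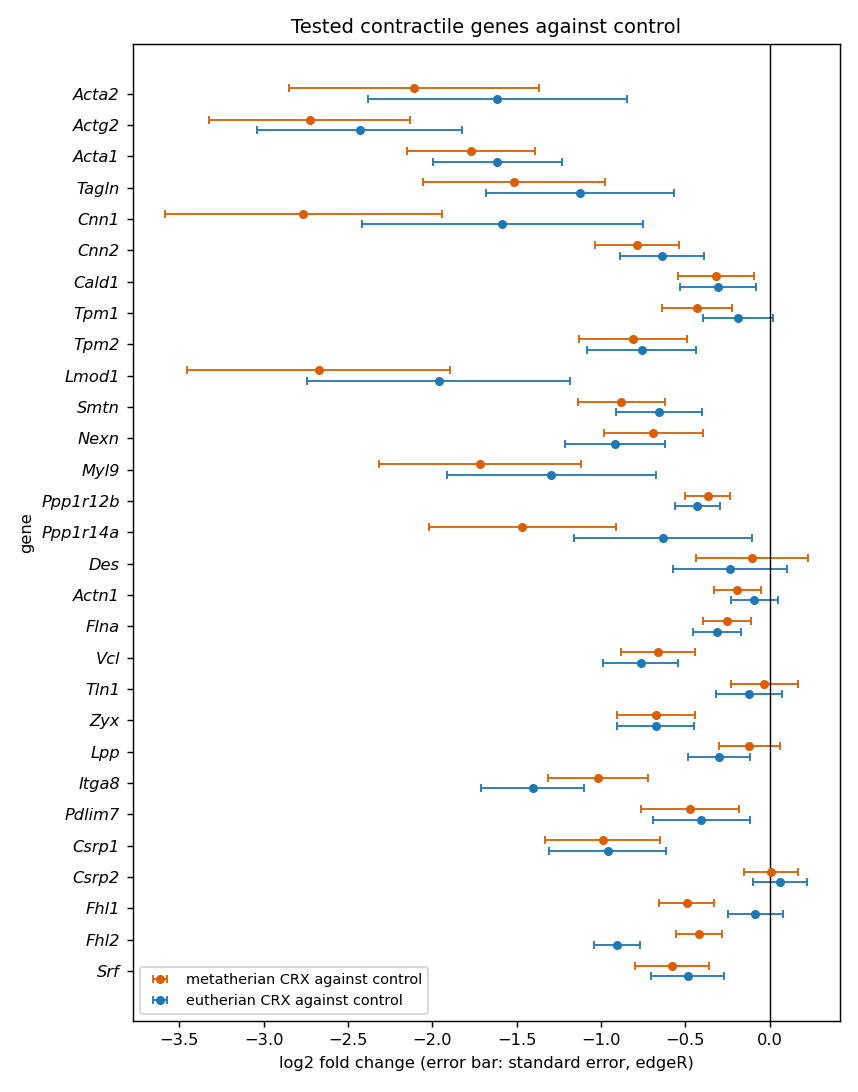
Log2 fold change against control (x axis, error bars give the standard error from edgeR) of the 29 tested contractile genes (y axis) with metatherian CRX (orange) and eutherian CRX (blue). For metatherian CRX the lowest values are those of *Cnn1*, *Actg2*, *Lmod1* and *Acta2*, from -2.76 to -2.11, and *Csrp2* is the only gene above 0 in either comparison.

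Desmin (*Des*), the intermediate filament of muscle, had 7.23, 8.63 and 11.8 CPM in control, 4.80, 4.55 and 18.4 CPM with eutherian CRX and 7.47, 7.51 and 10.5 CPM with metatherian CRX. Eutherian CRX replicates 1 and 2 lay below all controls, whereas replicate 3 was the highest of the 9 libraries. The log2 fold changes were -0.10 for metatherian and -0.24 for eutherian CRX (adjusted p = 0.892 and 0.922, edgeR). For eutherian CRX *Des* was called lower without the libraries numbered 3 (-0.76, adjusted p = 0.0472, edgeR, 3.43% of all genes called). It was also called lower with limma voom and library quality weights (-0.59, adjusted p = 0.0335, 16.8% of all genes called).

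Adhesion and crosslinking proteins, which anchor the filaments at the membrane, had medians of -0.25 and -0.32 on the log2 scale over 7 tested genes, and *Itga8*, *Vcl* and *Zyx* had an unadjusted p under 0.05 in both comparisons. *Itga8*, an integrin subunit of smooth muscle and fibroblast-like cells, had 63.4, 63.4 and 87.0 CPM in control, 33.3, 31.7 and 16.3 CPM with eutherian CRX and 36.4, 29.7 and 39.7 CPM with metatherian CRX. The lowest control thus stood well above the highest CRX library, and the log2 fold changes were -1.02 (SE 0.30, adjusted p = 0.148, edgeR) for metatherian and -1.40 (SE 0.30, adjusted p = 0.160, edgeR) for eutherian CRX. *Vcl*, vinculin, the link between integrin complexes and actin, with a CArG box in the window above, had nearly the same level in all controls, at 937, 928 and 953 CPM. With eutherian CRX it had 770.5, 606 and 351 CPM and with metatherian CRX 704, 551 and 549.9 CPM, all below control, for log2 fold changes of -0.77 (unadjusted p = 0.0108, edgeR) and -0.66 (0.0195) in that order. *Zyx*, zyxin, which gathers at adhesions under tension, had 271, 381 and 537 CPM in control, 213, 202 and 319 CPM with eutherian CRX and 231, 271.3 and 210.3 CPM with metatherian CRX. Its lowest control lay within either CRX group, and its log2 fold changes were -0.68 in both comparisons (unadjusted p = 0.0224 for metatherian and 0.0218 for eutherian CRX, edgeR). Exons of *Zyx* overlap *Epha1* on the other strand by 236 bases. *Actn1*, *Flna*, *Tln1* and *Lpp*, which crosslink actin or couple it to adhesions in most cells, had log2 fold changes from -0.25 to -0.03 for metatherian and from -0.32 to -0.09 for eutherian CRX, and none had an unadjusted p under 0.05.

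LIM proteins bind actin or adhesion complexes and some act as cofactors in the nucleus. *Csrp1*, cysteine-rich protein of smooth muscle, had 259, 299.5 and 456 CPM in control, 205, 212 and 101 CPM with eutherian CRX and 172, 149.6 and 188 CPM with metatherian CRX, apart from control in either group (log2 fold change -0.96 for eutherian and -0.99 for metatherian CRX, unadjusted p = 0.0284 and 0.0233, edgeR). Its relative *Csrp2* had log2 fold changes of 0.06 and 0.01. *Fhl2*, a LIM-only cofactor of SRF-dependent transcription, had 69.9, 80.3 and 110 CPM in control, 39.9, 37.3 and 63.0 CPM with eutherian CRX and 64.9, 56.0 and 70.4 CPM with metatherian CRX. All eutherian CRX libraries were below all controls, whereas metatherian CRX replicate 3 lay just above the lowest control. Its log2 fold change for eutherian CRX, -0.91 (SE 0.14, adjusted p = 0.0535, edgeR), had the smallest adjusted p of the 29 genes in that comparison, and for metatherian CRX it was -0.42 (SE 0.14, adjusted p = 0.176, edgeR). *Fhl1*, a related LIM-only protein of muscle and the only gene with both motifs in its window, had 453, 379 and 167 CPM in control, 457, 415 and 123 CPM with eutherian CRX and 285, 273 and 130.5 CPM with metatherian CRX. Like *Myocd*, it had the lowest value of each group in the library numbered 3, and its log2 fold changes were -0.09 for eutherian (unadjusted p = 0.618, edgeR) and -0.49 for metatherian CRX (0.0202). *Pdlim7*, a PDZ-LIM protein of actin bundles, had log2 fold changes of -0.47 and -0.41 for metatherian and eutherian CRX, with no unadjusted p under 0.05. The muscle proteins *Pdlim3* and *Ldb3* were below the filter. *Pdlim3* had 12, 18 and 30 counts in control, 9, 12 and 2 with eutherian CRX and 4, 4 and 3 with metatherian CRX. *Ldb3*, a Z-disc protein, had 4.66, 4.94 and 7.74 CPM in control, 3.38, 2.89 and 3.88 CPM with eutherian CRX and 4.57, 4.19 and 5.03 CPM with metatherian CRX, apart from control with eutherian CRX alone.

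Among the transcription factors, *Srf*, whose own window holds 2 CArG boxes, had 54.8, 64.8 and 73.6 CPM in control, 47.1, 37.9 and 52.7 CPM with eutherian CRX and 44.3, 51.7 and 32.9 CPM with metatherian CRX. All CRX libraries were below all controls, with log2 fold changes of -0.49 (unadjusted p = 0.0607, edgeR) for eutherian and -0.58 (0.0334) for metatherian CRX. *Myocd*, myocardin, the SRF coactivator of smooth and cardiac muscle, was scarce, with 88, 124 and 62 counts in control, 60, 46 and 16 with eutherian CRX and 79, 74 and 29 with metatherian CRX. Of the other SRF cofactors on a list of *Mkl1*, *Mkl2* and the ternary complex factors, 5 were tested. *Mkl1* (MRTF-A), a cofactor that senses free actin, differed by -0.78 on the log2 scale for metatherian (SE 0.14, adjusted p = 0.0822, edgeR) and by -0.05 for eutherian CRX, and the other 4 had no unadjusted p under 0.05 in either comparison.

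Of 15 non-muscle relatives of these proteins, such as cytoplasmic actins, non-muscle myosins and other tropomyosins, all were tested, with median log2 fold changes of -0.28 for metatherian and -0.16 for eutherian CRX. At an unadjusted p under 0.05, 4 were lower with metatherian CRX (10.5% of all genes, edgeR called 0), among them *Tln2* (-0.68), *Myl12a* (-0.48) and *Myh10* (-0.50), and 1 with eutherian CRX (6.34% of all genes), *Myh10* (-0.59). Of 21 tested genes of the TGF-beta pathway, which drives myofibroblasts, 8 were lower (10.5% of all genes) and 1 higher (9.04%) with metatherian CRX and 5 lower (6.34%) with eutherian CRX at an unadjusted p under 0.05, with edgeR calling 0 and medians of -0.18 and -0.16. They included *Tgfbi*, with log2 fold changes of -0.47 and -0.59 for metatherian and eutherian CRX, the inhibitory *Smad6*, with -1.10 and -0.27, and the secreted *Ctgf*, with -0.15 and -1.11.

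Markers of other cells were compared with the contractile genes. The defining regulators of skeletal and heart muscle were absent or near it, with 0 of 10 skeletal and 0 of 7 cardiac markers above the filter, *Myf5* and *Myh6* without a count in all 9 libraries, and skeletal sums of 1.11 to 1.45 CPM in control, 0.834 to 1.33 CPM with eutherian and 0.825 to 1.25 CPM with metatherian CRX. The cardiac sums were 2.59 to 3.84 CPM, 0.960 to 2.73 CPM and 1.18 to 2.31 CPM in the same order. The sum of 7 pericyte markers was 829.6 to 974 CPM in control, 757 to 792 CPM with eutherian CRX and 632 to 889 CPM with metatherian CRX. Among them, 5 were tested, and *Mcam*, an adhesion molecule of pericytes and smooth muscle, was the 1 called with eutherian CRX (-1.79 on the log2 scale, SE 0.26, adjusted p = 0.0481, edgeR, 0.604% of all genes called). That call was lost without the replicate block and without any 1 of the control libraries, the eutherian CRX libraries or metatherian CRX replicate 1, where edgeR called no gene in this comparison, and *Mcam* had 14.1, 17.3 and 82.8 CPM in control. With metatherian CRX 2 of the 5 were lower at an unadjusted p under 0.05 (10.5% of all genes), *Pdgfrb* (-0.90) and *Mcam* (-0.64), and 1 was higher (9.04%), *Rgs5* (2.64). The sum of 9 fibroblast markers was 21020 to 23760 CPM in control, 7567 to 17640 CPM with eutherian CRX and 7974 to 16530 CPM with metatherian CRX. The chains of type I collagen made up most of this sum in control, with 8985 ± 1144, 4559 ± 3006 and 3675 ± 2300 CPM for *Col1a1* and 6101 ± 577, 2999 ± 1717 and 2860 ± 1280 CPM for *Col1a2* in control, eutherian and metatherian CRX (SD, n = 3). All 9 were tested, and edgeR called 0 in either comparison. At an unadjusted p under 0.05, 5 were lower with metatherian CRX (10.5% of all genes), namely *Col1a1* (-1.70 on the log2 scale), *Col1a2* (-1.28), *Thy1* (-1.14), *Dcn* (-1.99) and *Lum* (-2.12), and 1 was higher (9.04%), *Pdgfra* (0.58). With eutherian CRX 4 were lower (6.34%), namely *Col1a1* (-1.43), *Col1a2* (-1.27), *Thy1* (-1.34) and *Fap* (-0.89), and 0 higher (2.23%). *Vim*, vimentin, had 5221 ± 196, 5044 ± 590.2 and 4991 ± 961 CPM in control, eutherian and metatherian CRX (SD, n = 3). The sum of 6 leukocyte markers was 5.43 to 16.1 CPM in control, 4.32 to 9.52 CPM and 3.90 to 5.37 CPM in the CRX groups. Of these only *Tyrobp* was tested, with a log2 fold change of -2.73 for metatherian CRX (unadjusted p = 0.0248, adjusted p = 0.197, edgeR) and -0.91 for eutherian CRX. The sum of 6 endothelial markers overlapped between the groups, at 13.0 to 16.9, 14.1 to 18.5 and 11.2 to 18.3 CPM, as did that of 6 epithelial markers, at 0.863 to 3.60, 0.486 to 12.6 and 1.85 to 9.05 CPM in control, eutherian and metatherian CRX. The tested genes of these lists were *Kdr*, with -0.24 and 0.13 on the log2 scale for metatherian and eutherian CRX, and *Krt18*, with 1.98 for metatherian CRX (unadjusted p = 0.0347, adjusted p = 0.223, edgeR) and 0.63 for eutherian CRX. The part of these cells in the contractile differences was not tested.

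These counts depended on single libraries. Control replicate 3 was the highest of the 9 libraries for 22 of the 29 tested genes (17.3% of all genes), and eutherian CRX replicate 3 was the lowest for 16 (22.6%). Without control replicate 3 the median log2 fold change was -0.44 for metatherian and -0.36 for eutherian CRX, and 4 and 5 genes were lower at an unadjusted p under 0.05 (6.57% and 4.87% of all genes) in place of 19 and 12 (10.5% and 6.34%). Without metatherian CRX replicate 1 the count for metatherian CRX was 9 (5.91% of all genes), and without replicate 2 it was 11 (7.48%). Without eutherian CRX replicate 3, which enters the comparison of metatherian CRX with control through the spread and the block alone, 13 of the 29 genes were called lower with metatherian CRX (8.82% of all genes, edgeR). These were *Acta1*, *Acta2*, *Actg2*, *Cnn1*, *Csrp1*, *Fhl1*, *Itga8*, *Lmod1*, *Myl9*, *Nexn*, *Tagln*, *Tpm1* and *Vcl*. In the same fit the change of *Acta2* on the log2 scale was -2.09 (SE 0.18, adjusted p = 0.00578, edgeR) and that of *Cnn1* -2.75 (SE 0.17, adjusted p = 0.00409, edgeR). That fit called 0 of the 29 (0% of all genes, edgeR) for eutherian CRX, with 16 lower at an unadjusted p under 0.05 (5.75%). When metatherian CRX replicate 3 was left out, edgeR called 0 of the 29 for metatherian CRX (4.79% of all genes), with 14 lower at an unadjusted p under 0.05 (13.0%), and 1, *Fhl2*, for eutherian CRX (1.13%). Over the 9 fits without 1 library, the log2 fold change of *Acta2* lay between -2.73 and -1.45 for metatherian and between -2.26 and -0.80 for eutherian CRX, and that of *Actg2* between -3.07 and -1.73 for eutherian CRX.

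The orthologues were then compared directly. The edgeR test called 0 of the 29 genes (0% of all genes). At an unadjusted p under 0.05, 1 gene was lower (4.13% of all genes) and 1 higher (7.41%) with metatherian CRX, where DESeq2 called 0 (3.14% of all genes) and limma voom 13 (48.3%). For 0 of the 29 did all 3 metatherian CRX libraries lie below (5.3% of all genes) or above (6.23%) all 3 eutherian CRX libraries. Among the 7 genes below the filter, which were not tested, *Mylk* and *Ldb3* had all 3 metatherian CRX libraries above all 3 eutherian CRX libraries. The lower gene was *Fhl1* (log2 difference -0.41, SE 0.16, adjusted p = 0.418, edgeR), and the higher one *Fhl2* (0.49, SE 0.14, adjusted p = 0.309, edgeR), in which the metatherian CRX library was the higher in all 3 pairs. The log2 differences were -0.49 ± 0.76 (SE) in *Acta2*, -0.39 ± 0.55 in *Tagln*, -1.18 ± 0.84 in *Cnn1*, -0.71 ± 0.81 in *Lmod1* and -0.42 ± 0.60 in *Myl9*, with unadjusted p from 0.205 to 0.537 (edgeR), and these 5 genes are given because they were called without eutherian CRX replicate 3. For *Actg2* and *Smtn* they were -0.30 ± 0.60 and -0.22 ± 0.26. Over the 9 fits without 1 library the difference turned positive in *Acta2* (up to 0.12), *Tagln* (0.074), *Lmod1* (0.027) and *Myl9* (0.070). It changed sign in 16 of the 20 genes with an unadjusted p under 0.05 in any comparison. Eutherian CRX replicate 3 lay below all metatherian CRX libraries in these 5 genes, whereas replicates 1 and 2 lay above all of them in 4, with the exception of *Lmod1*, in which metatherian CRX replicate 3 had 14.6 CPM. Without eutherian CRX replicate 3, 5 of the 29 genes were called (3.37% of all genes), all lower with metatherian CRX. They were the same *Acta2* (-1.29, adjusted p = 0.0301, edgeR), *Tagln* (-1.05, adjusted p = 0.0415), *Cnn1* (-2.02, adjusted p = 0.0165), *Lmod1* (-1.60, adjusted p = 0.0485) and *Myl9* (-1.09, adjusted p = 0.0468). Without metatherian CRX replicate 3, edgeR called 0 of the 29 (1.46% of all genes), with 1 lower (8.64%) and 2 higher (12.4%) at an unadjusted p under 0.05.

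**Figure D4:**
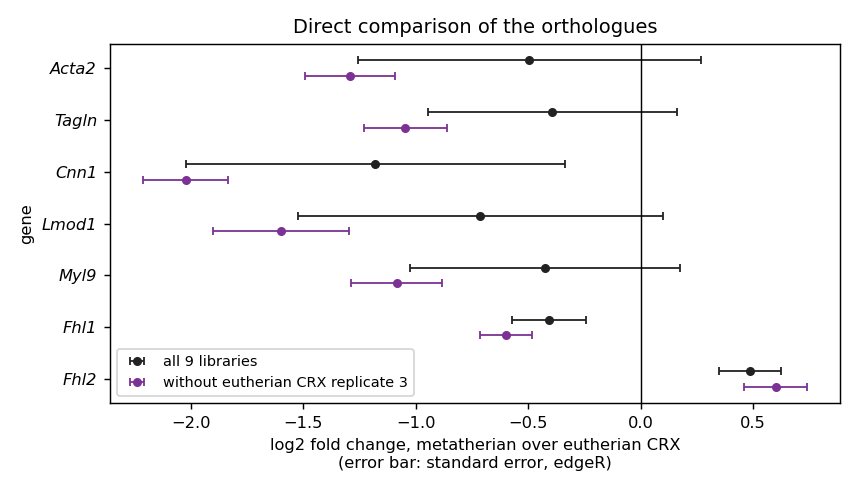
Log2 fold change of metatherian over eutherian CRX (x axis, error bars give the standard error from edgeR) for 7 contractile genes (y axis), from all 9 libraries (black) and without eutherian CRX replicate 3 (purple). Without that library *Acta2*, *Tagln*, *Cnn1*, *Lmod1* and *Myl9* move left, *Cnn1* from -1.18 to -2.02, and their errors shrink, whereas *Fhl1* and *Fhl2* change less.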

How the data were processed

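RNA-seq counts of 9 MEF libraries, 3 per group as the sample labels give them, were analysed. The authors mapped read pairs to mm10 (GRCm38) with STAR v2.4.0, counted them on genes with featureCounts v1.4.6 and deposited these raw counts without scaling. Which annotation release, strand option and rule for multiple alignments they used is not given in the sources used here. FPKM was derived here from the counts and the merged exon lengths.

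Counts were analysed with edgeR 4.0.16 in R 4.3.3. Genes kept by filterByExpr (14599 of 22068) with a mean FPKM above 2 in at least 1 group left 10100. TMM factors, the quasi-likelihood test and Benjamini-Hochberg adjustment were used in 1 fit of all libraries, and the scripts were tested on simulated data. The SE of a log2 fold change is its absolute value over the root of its F statistic, and a prior count of 2 was used for log2 CPM. The study states that its libraries were made and analysed as pairs, without saying which belong together, and blocking by replicate number is the reading of it used here. Of 9 pairs of libraries with the same number, 8 had deviations from their group means that correlated above 0.1 (0.0034 to 0.75). So had 5 of 18 with different numbers (-0.73 to 0.72), with control replicate 1 and eutherian CRX replicate 2 at 0.72. The same-number pair under 0.1 was replicate 2 of both CRX groups, so not every such pair met that limit. Alternatives were no block, other scaling (RLE, upper quartile), DESeq2 1.42.0, limma 3.58.1 voom with quality weights, other filters, only the 6 libraries compared, no libraries numbered 3, and each library left out.

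The 36 genes and the other lists were chosen with earlier results of these data known. Values by library are given for the 20 genes with an unadjusted p under 0.05 in any comparison. They are also given for *Des*, which was not among these, and for genes below the filter, in *Synpo2* for control alone. At most 3 genes by smallest p are named from each other list. Cell type markers are given by level, with log2 fold changes of tested ones beyond that limit, chosen after their values were seen, and 1 further list is not reported here. Totals between 54145701 and 94699657 counts per library set the precision, and a count of 0 allows up to 3 counts.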

Additional observations from a re-analysis of the deposited data

How the results depend on the processing

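The median log2 fold change of the contractile genes kept its sign in all settings for both comparisons with control. Without the replicate block, edgeR called 0 genes in each comparison with control in place of 3 and 61. At an unadjusted p under 0.05 that fit gave 17 and 14 of 29 contractile genes for metatherian and eutherian CRX, and 0 in the direct comparison. The share of all genes at the unadjusted threshold was not taken for the settings of this paragraph, so such counts have no background beside them. In the order of metatherian against control, eutherian against control and metatherian against eutherian CRX, DESeq2 called 1004, 333 and 317 genes, limma voom with library quality weights 4665, 1697 and 4883, and the fit without the libraries numbered 3 called 2252, 346 and 2280. Contractile genes called were 10 and 5 with DESeq2 for the comparisons with control, 23, 14 and 13 with limma voom, and 18, 6 and 11 without the libraries numbered 3. With only the 6 libraries compared, 398 and 0 genes were called against control, 8 contractile genes for metatherian CRX, and 1 had an unadjusted p under 0.05 in the direct comparison. For eutherian CRX, filterByExpr alone called 1 of 36 contractile genes (*Fhl2*) and 0.623% of all genes. No filter on low values called 2 of 36 (*Fhl2* and *Mylk*) and 109 genes in all (0.595%). At an unadjusted p under 0.05 for eutherian CRX, limma voom gave 20 of 29 contractile genes. Either looser filter gave 19 of 36, and the fit without the libraries numbered 3 gave 19 of 29. In the direct comparison, limma voom gave 11 lower and 3 higher, and the fit without those libraries 10 lower and 3 higher. These counts too stand without a share of all genes at that threshold. *Fhl1* for eutherian CRX turned to 0.044 with limma voom and 0.070 without the libraries numbered 3. The cause of these changes was not tested.

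With 1 library left out, genes called ranged from 0 to 891, 0 to 114 and 0 to 340 in the same order, contractile genes called from 0 to 13, 0 to 1 and 0 to 5, and those at an unadjusted p under 0.05 from 4 to 22, 5 to 16 and 0 to 11. The 11 were 9 lower and 2 higher. Of all genes, 5.91% to 13.8% were lower at that threshold for metatherian and 4.19% to 8.76% for eutherian CRX. In the direct comparison 1.26% to 8.68% of all genes were lower and 2.58% to 12.4% higher. Among the 20 genes with an unadjusted p under 0.05 in any comparison, the direct difference changed sign with 1 library left out in 16. It kept its sign in 4 (*Cnn1*, *Ppp1r14a*, *Fhl1* and *Fhl2*). Of the 9 given in the direct comparison it turned for 6, *Actg2* (-0.999 to 0.31), *Smtn* (-0.44 to 0.092), *Acta2* (-1.29 to 0.12), *Tagln* (-1.05 to 0.074), *Lmod1* (-1.60 to 0.027) and *Myl9* (-1.09 to 0.070), the latter 4 positive without eutherian CRX replicate 1 (*Acta2*, *Lmod1*, *Myl9*, 0.029 in the latter) or 2 (*Acta2*, 0.093, *Tagln*, *Myl9*). Against control, *Fhl1* with eutherian CRX turned too (-0.19 to 0.11), positive without its replicate 3. Differences in genes with few counts, such as *Pdlim3*, are limited by depth.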
